A study of Mus musculus with 14 samples.

Results

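The genes described here encode the proteins of the cytosolic ribosome. They were taken as the protein-coding genes whose mouse symbol is Rpl or Rps with a number and at most 1 closing letter (a, x, l or y), or Rplp0 to Rplp2, or Rpsa, and whose reads summed over all libraries came to more than 10. 81 symbols fitted and 79 of them passed, 47 of the large and 32 of the small subunit, out of 22339 genes with a total above 10. The testis paralogs Rpl10l and Rpl39l had 0 counts in all 14 libraries and were left out.

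The libraries came from whole kidneys of female wild-type CD-1 mice at 18 weeks of age, 1 mouse each. Term-born mice without diabetes (T-ND, n = 4) and term-born mice made diabetic with streptozotocin (T-D, n = 4) were set beside preterm-born mice without diabetes (PT-ND, n = 3) and preterm-born mice given streptozotocin (PT-D, n = 3). Streptozotocin (STZ) is a toxin taken up by the insulin-producing beta cells of the pancreas, given in early adulthood, and some preterm females had a second round of it. Preterm pups were delivered by Caesarean section a day before term and raised by foster mothers, so delivery, fostering and early birth cannot be told apart in PT-ND and PT-D, nor can the second STZ round and birth in PT-D. The CD-1 stock is outbred, so mice of a group also differ in their genome.

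Each cytosolic ribosome holds 1 copy of most of these proteins, built around ribosomal RNA into a small subunit that reads the mRNA and a large subunit that joins the amino acids. The mRNAs of the family are short and abundant, and most begin with a run of pyrimidines at the cap, the terminal oligopyrimidine (TOP) tract, through which mTORC1 and the RNA-binding protein LARP1 set how much of each mRNA is translated and stored. In the kidney they are made in every cell type, and a bulk library cannot tell fewer cells of a type from less RNA in each cell. The genome also holds many processed pseudogenes of the family, near copies without introns, which matters for how reads are assigned.

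The letters below show the start of 5 of these genes, picked among the genes named later for runs of C or T of differing length, beside 1 without such a run and 1 gene of the translation machinery outside the ribosome. Each line gives 30 bases 5′ to 3′, from 10 before the start site to 20 from it onwards, from RefSeq on GRCm38.p6, with the run of 8 or more C or T in capitals.

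Rpl35a, chr16:33056472-33056501, plus strand: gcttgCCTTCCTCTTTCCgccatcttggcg

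Rps6, chr4:86857348-86857377, minus strand: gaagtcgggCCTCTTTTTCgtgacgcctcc

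Rplp2, chr7:141447641-141447670, plus strand: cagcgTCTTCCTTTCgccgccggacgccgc

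Rps27, chr3:90213629-90213658, minus strand: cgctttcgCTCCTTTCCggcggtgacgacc

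Rps9, chr7:3704031-3704060, plus strand: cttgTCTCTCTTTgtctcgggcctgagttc

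Rps4x, chrX:102189372-102189401, minus strand, no such run: gctgggcggagcaacccaggctccagcgcg

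Eef1a1, chr9:78481705-78481734, minus strand: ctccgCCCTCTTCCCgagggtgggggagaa

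A start site was found in the RefSeq table for 58 of the 79 genes. A run of at least 8 C or T on the coding strand, lying within 20 bases before to 50 bases after the start, was present in 46 of these 58 (79.3%). The same search found a run in 27.3% of 27025 genes in the table, and in 16 of 68 genes for the ribosomal proteins of the mitochondrion (23.5%). The run is a match of letters near an annotated start and was not measured as a cap site here.

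Depth ranged from 16697246 to 28673176 reads counted on genes, with a median of 18765582, and no pair of libraries was identical. Of all reads, 9.07% to 14.9% mapped to several places and were not counted. Defining markers of the kidney were present in every library. Summed over 9 proximal tubule markers, the normalised read counts (scaled to a common library size) were 216300 to 358400 in PT-D and 379500 to 667100 in the other groups. Much of this gap was Kap, at 5495 to 87060 in PT-D and 79760 to 427500 elsewhere. Without it the other 8 markers summed to 210800 to 288500 in PT-D, overlapping T-ND (242200 to 319700) and T-D (239500 to 302900). All PT-D libraries lay below the 327000 to 337500 of PT-ND, as did those of T-ND and T-D. Of these 9, 1 fell in PT-D compared to PT-ND, and 0 of 9 passed against T-ND or T-D. The 4 podocyte markers summed to 8607 to 10910 in PT-D and 2664 to 8393 elsewhere, with 3 of 4 higher than in PT-ND and 4 of 4 higher than in T-ND. The 8 endothelial markers summed to 9906 to 13190 in PT-D and 4562 to 10570 elsewhere, with 4 of 8 higher than in PT-ND. Of 11 leukocyte markers 2 were higher than in PT-ND and 1 than in T-ND. Their sum was 6146 to 9844 in PT-D and highest in T-D 4, at 16000, where Cd74 alone read 11594. The median log2 fold change of these 11 in PT-D compared to T-D was 1.07 (0 of 11 passed). The 3 markers of the thick ascending limb and distal tubule had a median log2 fold change of -0.56 in PT-D compared to T-ND (1 of 3 fell), and the 3 of the collecting duct -0.85 (0 of 3 passed). Erythroid markers summed to 2203 to 5302 in PT-D, 447.1 to 10350 in T-ND, 219.5 to 2404 in PT-ND and up to 19720 in T-D 4. Skeletal muscle markers summed to 33.6 or less, with Myh4 under the count minimum. The part of these markers in the results below was not tested.

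Together the 79 genes took a smaller share of all counts on genes in PT-D kidneys than in any other library, a separation that was lost when transcripts of the mitochondrial genome were left out of the total. The share was 2.39% ± 0.259 (SD, n = 4) in T-ND, 2.72% ± 0.574 (n = 4) in T-D, 2.62% ± 0.490 (n = 3) in PT-ND and 1.85% ± 0.169 (n = 3) in PT-D. The 3 PT-D libraries lay between 1.69% and 2.02%, the T-ND libraries between 2.04% and 2.66%, the T-D libraries between 2.29% and 3.56% and the PT-ND libraries between 2.10% and 3.07%. PT-D was thus below every other library, by a narrow margin to T-ND 3, whereas T-ND, T-D and PT-ND overlapped. The highest share, 3.56%, was that of T-D 4. Mitochondrial genome transcripts took 11.1% to 16.9% of the counts in PT-D and 8.53% to 13.7% elsewhere, and without them the mean share of the family was 2.67% in T-ND and 2.15% in PT-D. The libraries then overlapped, since PT-D 1 was at 2.43%, above T-ND 3 at 2.23% and PT-ND 1 at 2.36%.

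The genes moved together from library to library. The median over the 79 genes of the log2 level relative to each gene's own mean was -0.28, -0.42 and -0.61 in PT-D, -0.22, 0.22 and 0.51 in PT-ND, -0.09, 0.13, 0.15 and 0.84 in T-D, and 0.01, 0.15, -0.27 and -0.10 in T-ND. T-D 4 had 77 of the 79 genes above their own mean and PT-D 3 had 2. Over the 14 libraries, a gene's Pearson correlation with the median of the others had a median of 0.97, and it was above 0.8 in 66 of 79 genes. The points share depth and scaling, so this is a description. The 3 lowest were Rpl26 (0.28), Rpl24 (-0.07) and Rps10 (-0.15), which are taken up below.

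**Figure D1:**
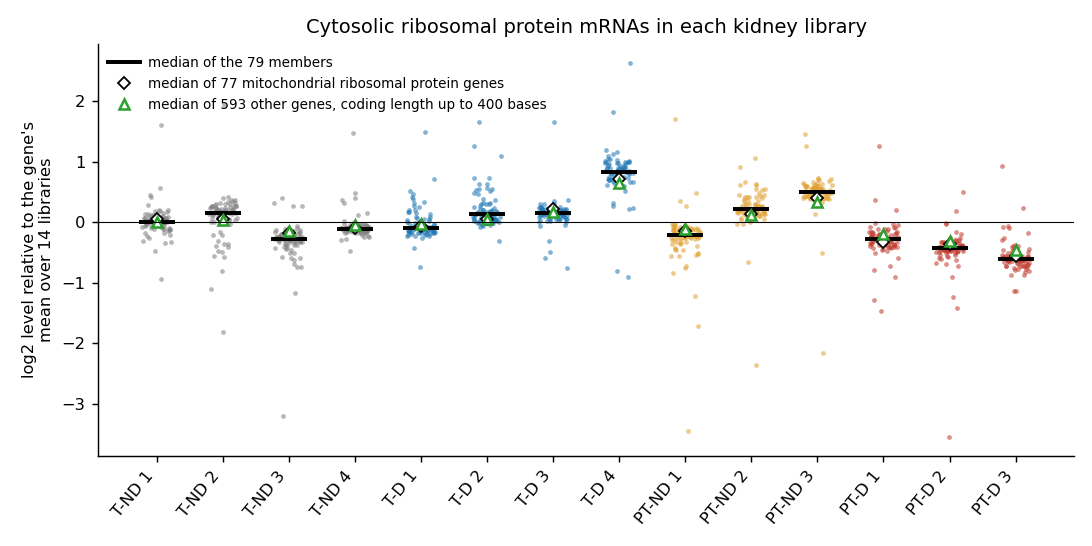
Relative log2 level (vertical axis) of each of the 79 genes (points) in each of the 14 libraries (horizontal axis), with the medians of these genes, of 77 mitochondrial ribosomal protein genes and of 593 other short protein-coding genes. All medians of the 3 PT-D libraries lie below 0, and the highest median of the 79 genes is 0.84 in T-D 4.

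The study's first question was how preterm birth with diabetes compares with the term-born healthy kidney. In PT-D compared to T-ND, Rpl35a and Rpl17 fell, and 74 of the 79 genes had lower and 5 higher fitted values. Rpl35a, a protein of the large subunit whose loss-of-function mutations cause the red cell disorder Diamond-Blackfan anaemia, read 1034, 949 and 813 normalised counts in PT-D and 1441, 1755, 2227 and 2360.1 in T-ND. All 3 PT-D libraries were below all 4 T-ND libraries. The log2 fold change was -1.07 ± 0.19 (SE) with an adjusted p of 0.028 by edgeR's quasi-likelihood test with Benjamini-Hochberg adjustment over all genes. Rpl17, which lines the exit of the peptide tunnel, read 4326, 5107 and 4341 in PT-D against 6376 to 7775 in T-ND, again with no overlap, a log2 fold change of -0.61 ± 0.13 and an adjusted p of 0.042.

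These 2 genes are 2.53% of the family, beside 1.15% of all genes tested that were called lower and 1.61% called higher, so the count of calls is near the background. The median log2 fold change of the family was -0.40, beside 0.03 over all genes. In 32 of the 79 genes the PT-D libraries lay below all T-ND libraries, as they did in 11.2% of all genes tested. The smallest p-values among the genes with higher values belonged to Rpl24 (log2 fold change 0.65, adjusted p = 0.60) and Rpl3l (0.37, adjusted p = 0.72), both read at under 20 counts on average in these groups, and neither passed. The number of genes called was 18 without T-ND 3, 1 without T-ND 1 or PT-D 1, and 0 without T-ND 2, T-ND 4, PT-D 2 or PT-D 3. Here and below, counts with a library left out are given without the number called over all genes in the same fit. Whether they are particular to the family cannot be read from them.

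PT-D and PT-ND differ in STZ alone among preterm mice. Here 29 of the 79 genes fell and 1, Rpl26, was called higher. The 29 genes are 36.7% of the family, beside 5.78% of all genes tested that were called lower (7.14% were called higher). The median log2 fold change was -0.66, beside 0.05 over all genes, 77 genes had lower and 2 higher values, and in 48 genes the PT-D libraries lay below all PT-ND libraries, as they did in 15.8% of all genes tested.

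Rpl35a again had the smallest p. It read 2274, 3350.0 and 1954 in PT-ND, so that the highest PT-D library, at 1034, was below the lowest PT-ND library, and the log2 fold change was -1.44 ± 0.21 (adjusted p = 0.0041). Rps4l, a retained copy of the X-linked small subunit gene Rps4x that is expressed at a low level, read 86.2, 83 and 52.8 in PT-D and 141, 244 and 178 in PT-ND. The groups did not overlap and the log2 fold change was -1.34 ± 0.30 (adjusted p = 0.018). Rps9, a small subunit protein at the mRNA entry side, read 6495, 6156 and 5488 in PT-D against 7846, 10469.9 and 11798 in PT-ND. Its change was smaller, at -0.73 ± 0.18 (adjusted p = 0.025), and again without overlap.

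Rpl17 (-0.82 ± 0.20, adjusted p = 0.025) and Rpl29 (-0.84 ± 0.21, adjusted p = 0.026), both of the large subunit, completed the 5 smallest p-values. Among the other genes that fell were Rpl3, Rpl5, Rpl7, Rpl7a, Rpl8, Rpl10, Rpl11, Rpl13, Rpl18, Rpl22, Rpl32, Rpl36a, Rpl37a, Rplp0 and Rplp1 of the large subunit, and Rps3, Rps4x, Rps6, Rps14, Rps20, Rps23 and Rps25 of the small subunit. Of the large subunit 19 of 47 genes (40.4%) and of the small subunit 10 of 32 (31.25%) were called lower, with medians of -0.66 in each. The difference between the subunits was not tested. The number of calls rested on single libraries. It was 1 without PT-ND 2 or without PT-ND 3, 4 and 3 without PT-D 2 and PT-D 3, and 68 without PT-ND 1, the lowest of the PT-ND libraries, while the median stayed between -0.84 and -0.48.

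**Figure D2:**
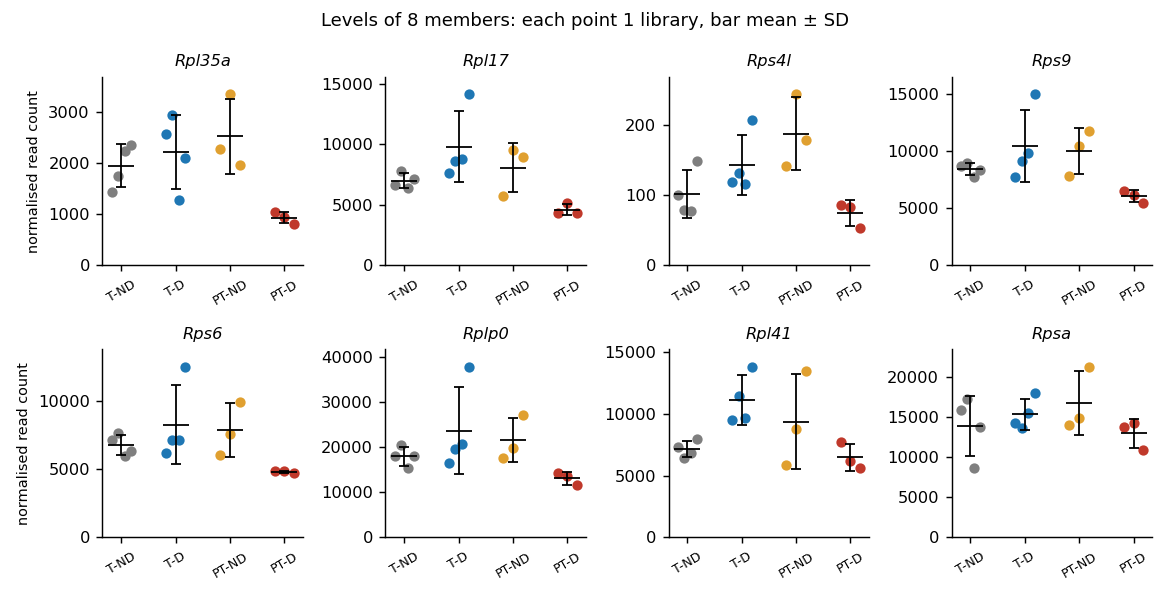
Normalised read counts (vertical axes, from 0) of 8 ribosomal protein genes in the 4 groups, each point 1 library, with mean and SD. For Rpl35a and Rpl17 the 3 PT-D libraries lie below every other library, whereas for Rpsa the 4 groups overlap.

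The comparison of PT-D with T-D asks whether birth matters among diabetic mice. 77 of the 79 genes had lower and 2 higher values in PT-D, with a median log2 fold change of -0.76 beside 0.06 over all genes, but edgeR called 0 of the 79. The background was low, with 0.0583% of all genes called lower and 0.135% higher. At an unadjusted p under 0.05, 73 genes were lower and 0 higher, beside 10.9% and 11.4% of all genes. In 70 of the 79 the PT-D libraries lay below all 4 T-D libraries, as they did in 10.6% of all genes. The smallest p-values were those of Rpl35a (-1.25 ± 0.26, adjusted p = 0.068) and Rpl17 (-1.10 ± 0.23, adjusted p = 0.068), which did not pass, and on the other side those of Rps10 (0.21) and Rpl24 (0.32), with adjusted p of 0.81 and 0.82. DESeq2 called 61 of the 79 genes lower in this comparison, beside 9.03% of the genes it tested. T-D 4 stood above the other T-D libraries for most genes, and without it the median was -0.50 and 3 genes were called (1 without T-D 3).

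In T-D compared to T-ND, the effect of STZ in term-born mice, the values went the other way but 0 genes passed edgeR's test. 78 of the 79 genes had higher values and 1 a lower one, with a median of 0.36 beside -0.02 over all genes. Unadjusted p-values were under 0.05 for 18 genes, all with higher values, beside 5.57% of all genes on that side. In 8 genes the T-D libraries lay above all T-ND libraries, beside 2.90% of all genes. The background here was 0.0539% called higher and 0.0135% lower. DESeq2 called 4 of the 79 higher, beside 1.67% of the genes it tested. Rps27l, a paralog of Rps27 that p53 is known to induce, read 3306, 4438, 4055 and 6623 in T-D and 2380.4 to 2774 in T-ND, without overlap, at 0.79 ± 0.19 on the log2 scale (adjusted p = 0.17). Rpl41, the shortest protein of the ribosome, read 9502, 11462, 9662 and 13832 against 6460.5 to 7993, also without overlap (0.62 ± 0.16, adjusted p = 0.19). The 1 gene with a lower value was Rps10 (-0.16, adjusted p = 0.90). The median fell to 0.10 without T-D 4.

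Preterm birth without STZ, together with delivery and fostering, gave the smallest median shift when all libraries were kept. Without T-D 4 the median of T-D compared to T-ND was smaller, at 0.10. In PT-ND compared to T-ND, 76 genes had higher and 3 lower values, the median was 0.26 beside 0.00 over all genes, and edgeR called 0, beside 0.0719% of all genes called higher and 0.00899% lower. 7 genes with higher and 1 with lower values had an unadjusted p under 0.05, beside 5.55% and 5.15% of all genes, and DESeq2 called 1 gene, lower, beside 0.773% of the genes it tested. The smallest p-values were those of Rps4l (0.89, adjusted p = 0.36) and Rpl24 (1.94, adjusted p = 0.38) on the higher side, and of Rpl26 (-3.85, adjusted p = 0.20) and Rpl30 (-0.54, adjusted p = 0.53) on the lower side. Without PT-ND 3 the median was 0.07.

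Whether STZ acts differently after preterm and term birth was tested as an interaction over all 14 libraries. The difference, the log2 response to STZ in preterm minus that in term mice, was negative in 78 of the 79 genes, with a median of -1.03 beside 0.07 over all genes. 20 genes (25.3%) passed, all between -1.86 and -1.03, beside 3.41% of all genes called lower and 2.82% called higher. Rpl35a (-1.63 ± 0.36, adjusted p = 0.027), Rpl17 (-1.30 ± 0.30, 0.029), Rps4l (-1.84 ± 0.43, 0.030), Rpl38 (-1.31 ± 0.31, 0.032) and Rps28 (-1.22 ± 0.29, 0.032) had the smallest adjusted p-values. Rpl38, which is required for the translation of Hox mRNAs in the embryo, shows the form of the difference. It read 1620.3 to 2181 in T-ND and 2382, 3333, 2657 and 3617 in T-D, and then 1630.5, 3012 and 3496 in PT-ND and 1904, 1637 and 1633 in PT-D. The T-D libraries were above all T-ND libraries, while the PT-D libraries overlapped the lowest PT-ND library. The opposite direction, that of Rpl26 (2.46, adjusted p = 0.24), did not pass. The count of 20 became 0 without PT-ND 2, PT-ND 3, PT-D 2 or PT-D 3, 4 to 11 without any 1 T-ND library, T-D 3, T-D 4 or PT-D 1, 38 without PT-ND 1 and 43 without T-D 1, whereas the median stayed between -1.20 and -0.78. The interaction and the pairwise comparisons share libraries and are not independent of each other.

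The number of genes called depended on the tool and the call rule. DESeq2 called 22 of the 79 genes lower in PT-D compared to T-ND (8.16% of all genes it tested), 61 lower and 1 higher compared to PT-ND (13.5% and 13.2%), and 58 negative in the interaction (11.5%). The study's call rule, which also asks for a log2 fold change beyond 1, left Rpl35a in PT-D compared to T-ND (0.453% of all genes lower), Rpl35a, Rps4l and Rpl26 compared to PT-ND (1.99% lower and 2.96% higher) and all 20 genes of the interaction (2.46% lower).

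**Figure D3:**
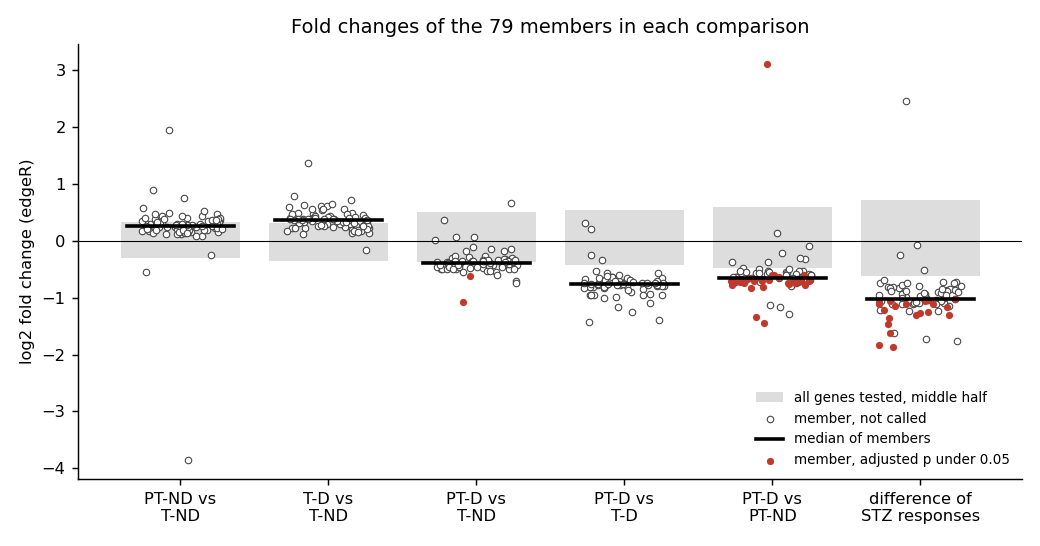
Fitted log2 fold changes (vertical axis) of the 79 genes in the 5 comparisons and the difference of the STZ responses (horizontal axis), with the called genes filled, the median as a bar and the middle 50 percent of all genes tested as a grey box. The medians are 0.26 and 0.36 in the first 2 comparisons and -0.40, -0.76, -0.66 and -1.03 in the others.

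By role, the genes of the stalk gave values near the median of the large subunit. Rplp0, the base of the stalk that recruits the elongation factors, read 14291, 13510.1 and 11482 in PT-D, 17652, 19834 and 26999 in PT-ND, 16377, 19519, 20749 and 37788 in T-D and 15249 to 20375 in T-ND. All PT-D libraries were below all others, and it fell in PT-D compared to PT-ND (-0.72, adjusted p = 0.034). Its partner Rplp1 fell too (-0.72, adjusted p = 0.046), and Rplp2, with the run of C and T printed above, had -0.50 and did not pass (adjusted p = 0.13).

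Rpl5 and Rpl11 carry the 5S ribosomal RNA and, when not built into ribosomes, bind Mdm2 and so stabilise p53. Rpl5 read 5831, 6462 and 5650.3 in PT-D and 7721, 9523 and 11138 in PT-ND, and fell by 0.66 on the log2 scale (adjusted p = 0.030). Rpl11 read 5141, 4786 and 3852 against 5829, 8035 and 9201, with -0.74 (adjusted p = 0.032), and was among the 20 genes of the interaction. Both pairs of groups were free of overlap. Of the 3 genes listed with them for this link, Mdm2 (0.88) and Cdkn1a (0.91) rose in PT-D compared to PT-ND.

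Rps6, the substrate of the S6 kinases by which growth signals are often followed, was tight in PT-D at 4837, 4852 and 4671, below the 6001, 7557 and 9917 of PT-ND, the 6142 to 12488 of T-D and the 5922 to 7596 of T-ND. It fell in PT-D compared to PT-ND (-0.71 ± 0.19, adjusted p = 0.032), and had -0.50 ± 0.13 compared to T-ND (adjusted p = 0.062). Rps27a, made as a fusion with ubiquitin, had -0.60 compared to PT-ND and did not pass (adjusted p = 0.069). Rpsa, also known as the laminin receptor, read 13745, 14328 and 10942 in PT-D and 13999, 14982 and 21368 in PT-ND, so the groups overlapped and the change was among the smallest (-0.37, adjusted p = 0.25). Rpl41 overlapped as well, with 7703, 6164 and 5602 in PT-D against 5829, 8756 and 13459 in PT-ND (-0.53, adjusted p = 0.22).

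Among the genes listed because mutations in them cause Diamond-Blackfan anaemia, Rpl35a, Rpl5 and Rpl11 fell in PT-D compared to PT-ND, and Rpl26 was called higher. Rps26 (-0.68, adjusted p = 0.052), Rps7 (-0.63, 0.052), Rps24 (-0.73, 0.064) and Rps19 (-0.59, 0.092) had values near the family median and missed the threshold. Rps10 had -0.22 (adjusted p = 0.76).

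Levels were set beside each other per length, as reads over whole exons divided by coding length alone. The divisor leaves out untranslated bases, which weighs most in short coding sequences such as the 75 bases of Rpl41. Per kilobase of coding sequence, the mean level of the 79 genes had a median of 12890 normalised counts, and ran from 114800 in Rpl41, 37600 in Rplp1 and 24850 in Rpl10 down to 75.1 in Rps10, 26.6 in Rpl3l and 19.8 in Rpl24. On this scale Rpl3 averaged 5776 and its muscle-type paralog Rpl3l, at 6.3 to 58.3 normalised counts a library, 26.6. Rps4x averaged 12170 and Rps4l 160.3, and both fell in PT-D compared to PT-ND (Rps4x by 0.61 on the log2 scale, adjusted p = 0.035). Rps27 (20240) and Rps27l (13250) were closer to each other, and had -0.69 (adjusted p = 0.13) and -0.30 (adjusted p = 0.37) in that comparison. The low values of Rpl24 and Rps10 cannot be read as low mRNA, since reads in overlapping genes were not counted. In GENCODE M39, 81.5% of the exon bases of Rpl24 and 74.3% of those of Rps10 lie under another annotated gene on either strand. At least 50% of the exon bases are so covered in 12 of the 79 genes. Among these, Rpl13a (59.3% covered, 201.3) and Rpl35 (68.9%, 652.9) also read low, whereas Rps18 (71.6%, 10930) and Rpl31 (57.6%, 14040) read near the family median. The part of overlap in these levels was not tested.

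Some genes with near copies varied strongly between libraries. Whether read assignment, the genomes of single mice or expression of the copies lay behind this was not tested. Annotated pseudogenes that matched a gene at 95% identity or more over at least 80% of the pseudogene's own length were taken as near copies. Of 576 such copies, found for 70 of the 79 genes, 255 had more than 10 counts. Rpl26, a large subunit protein that also binds the p53 mRNA, was the 1 gene of the family whose highest library was over 10 times the lowest within a group (35.03 times), beside 116 of 10401 other protein-coding genes (1.12%). It read 3523, 4427, 126 and 3215 in T-ND, 3264, 3644, 3642 and 7179.8 in T-D, 106, 224 and 259 in PT-ND and 2768, 98.6 and 2209.6 in PT-D. The 5 low libraries were T-ND 3, all of PT-ND and PT-D 2.

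The intronless copy Gm15772 on chromosome 5 read 3180.1 in T-ND 3, 3460.2, 4763 and 5383 in PT-ND and 2853 in PT-D 2. In the other 9 libraries it read 1149 to 3853, so it was high where Rpl26 was low, though not there alone. Rpl26 and its copies summed to 2954 to 11043, and the largest ratio within a group was then 2.25 in place of 35.03. Rpl26 was called higher in PT-D compared to PT-ND (3.11 ± 0.84, adjusted p = 0.035), with overlapping groups, and with near copies added the value was -0.40. The coding sequences of the pair differ at 2 of 438 aligned bases, shown here to make plain how little separates their reads. Positions are counted from the A of the start codon in GRCm39, the differing base is in capitals, and a substitution names the base of the gene first.

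Rpl26, chr11:68794112-68794136, plus strand: cacaaccgtccaTgtgggcatccac

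Gm15772, chr5:3286706-3286730, plus strand, T288C: cacaaccgtccaCgtgggcatccac

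Rpl26, across an intron, chr11:68793265-68794025, plus strand: tcaggttgttcgCggacactacaaa

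Gm15772, chr5:3286595-3286619, plus strand, C177T: tcaggttgttcgTggacactacaaa

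Rps2 and Rpsa, chosen after their values were seen, also have near copies that read high in some libraries and low in others. Rps2 read 19556, 6178, 10689 and 18561 in T-ND and 4026, 12929 and 17519 in PT-ND. Its pseudogene Rps2-ps13 on chromosome X read 3169 to 9193 in 8 libraries and 0 to 19.3 in the other 6, and Rps2-ps10 read 2629 to 3469 in T-ND 2, PT-D 2 and PT-D 3 and 20.5 to 61.4 elsewhere. T-ND 2 and PT-ND 1, where Rps2 was lowest, both had Rps2-ps13 at a high level. With copies added, the largest ratio of Rps2 within a group went from 4.35 to 2.11. Rpsa-ps10 on chromosome 3 read 1506 to 10575 in T-ND 3, T-D 2, T-D 3 and T-D 4 and 49.6 to 172 elsewhere, and T-ND 3 was the lowest library of Rpsa, at 8682. T-D 4, with the highest count of Rpsa-ps10, was however also the highest T-D library of Rpsa, at 18065, and adding copies left the largest ratio of Rpsa within a group at 1.99, from 2.00. Rps2 and Rps2-ps13 differ at 7 of 882 aligned bases, the first of which is given here.

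Rps2, chr17:24939297-24939321, plus strand: cccaggattaggTggccgcggcggc

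Rps2-ps13, chrX:51987512-51987536, plus strand, T60A: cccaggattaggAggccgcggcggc

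**Figure D4:**
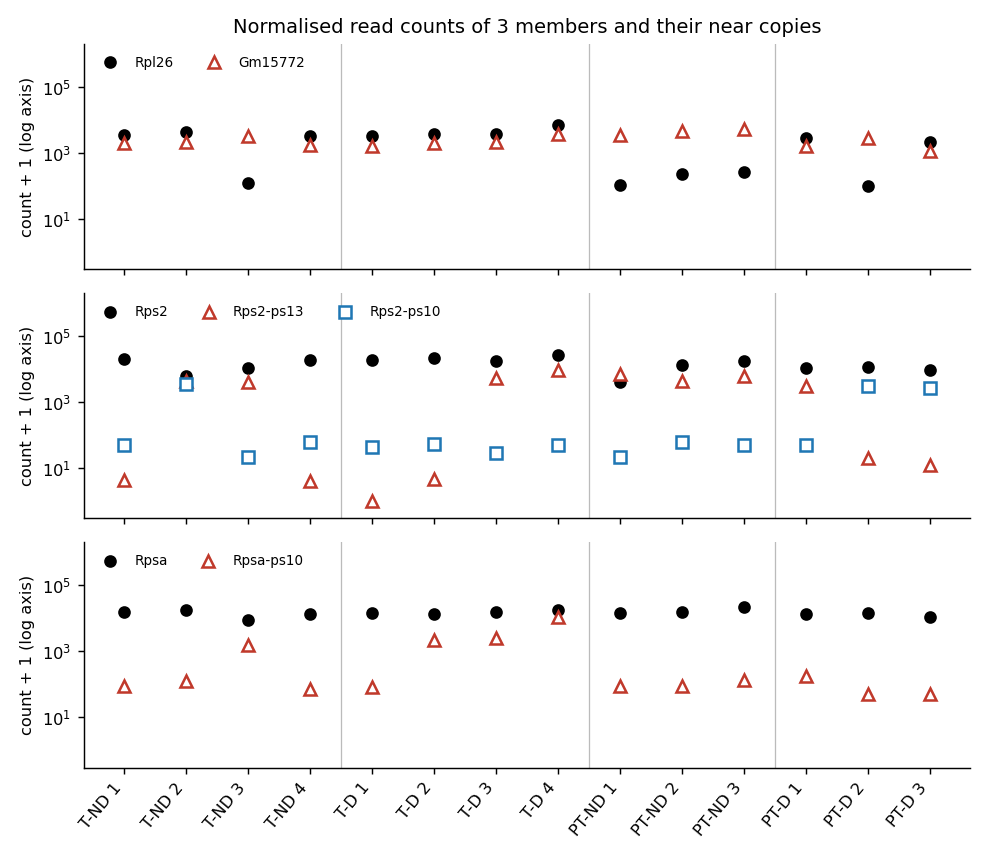
Normalised read counts plus 1 (vertical axes, log scale) of Rpl26, Rps2 and Rpsa and of their near copies in each of the 14 libraries. Rpl26 drops to 98.6 to 259 in 5 libraries in which Gm15772 reads 2853 to 5383, and Rps2-ps13 is at 19.3 or less in 6 libraries.

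Genes with short coding sequences moved like the ribosomal protein genes. Among other protein-coding genes with a total above 1400, the median log2 fold change in PT-D compared to PT-ND went from -0.46 in 593 genes of up to 400 coding bases, through -0.34 (401 to 600) and -0.23 (601 to 900), to 0.46 in 1361 genes above 3000. In the shortest of these classes 22.9% were called lower. The ribosomal protein genes of the same 3 classes had medians of -0.68, -0.64 and -0.61, lower than the other genes of like length in each class. The same order held for PT-D compared to T-D, with -0.78, -0.76 and -0.73 in the family and -0.55, -0.43 and -0.27 in other genes, and for the interaction, with -1.11, -1.03 and -0.87 against -0.72, -0.52 and -0.30. Over the 14 libraries the median profile of the family and that of other genes of up to 400 coding bases correlated at r = 0.99, given as a description since libraries share scaling.

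A fit with an offset for coding length per library, estimated on protein-coding genes outside the cytosolic and mitochondrial ribosome, reduced the family's shift. The median became -0.45 in PT-D compared to PT-ND (-0.08 over all genes), -0.55 compared to T-D (-0.12) and -0.78 in the interaction (-0.19). Against PT-ND 3 genes (3.80%) were then called lower and 1 higher, beside 5.46% of all genes called lower and 3.36% higher, and in the interaction 6 (7.59%; Rpl35a, Rpl17, Rps4l, Rpl37a, Rpl19 and Rps23), beside 4.35%. Against T-ND 0 genes passed with the offset, beside 0.713% of all genes called lower, with a median of -0.21. RNA integrity numbers of single libraries were not used here, and their part in the length trend was not tested.

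**Figure D5:**
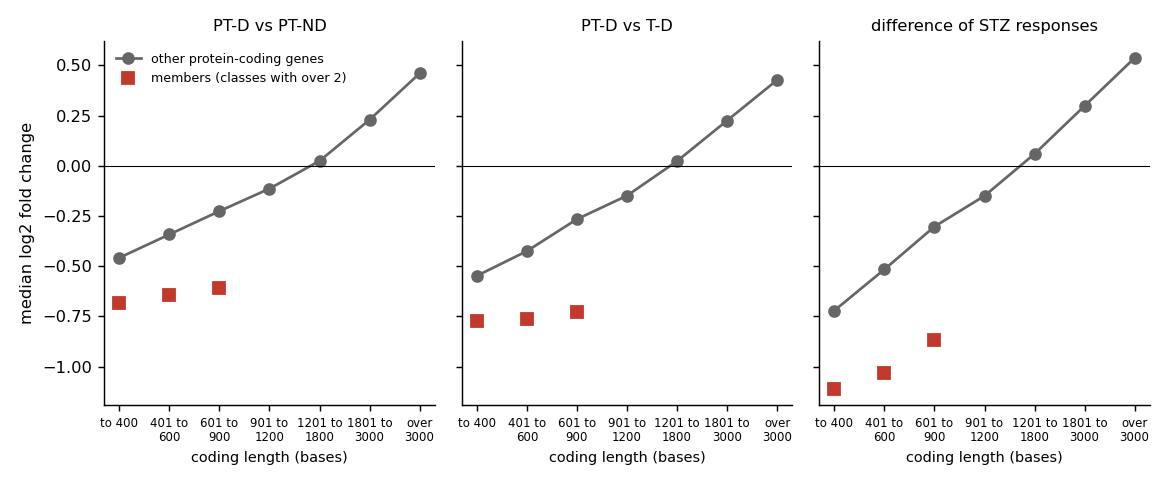
Median log2 fold change (vertical axis) by class of coding length (horizontal axis, bases) for other protein-coding genes and for the ribosomal protein genes, in PT-D compared to PT-ND, PT-D compared to T-D and the interaction. Other genes run from -0.46 to 0.46 in PT-D compared to PT-ND, and the ribosomal protein genes lie below them in the 3 shortest classes.

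The mitochondrial ribosomal proteins, whose genes also lie in the nucleus but whose products work in the mitochondrion, moved in a like way. Of these 77, 29 (37.7%) were called lower against PT-ND, with a median of -0.57, and in the interaction 28 of 77 with a median of -0.87. The median profiles of both families over the libraries correlated at r = 0.99, as did those of the family and other short genes. Nothing in these counts and medians sets the cytosolic family apart from the mitochondrial one. The difference between the families was not tested.

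Within the cytosolic family the medians of genes with and without a run of C or T near an annotated start were close. The run was not measured at the cap, so this is not a split by TOP status. The 46 genes with a run had a median of -0.65 in PT-D compared to PT-ND (12 called lower) and the 12 without one -0.66 (5 called lower). In the interaction the medians were -1.03 (15 called lower) and -0.99 (2 called lower). For the 21 genes without a start site in the table the medians were -0.70 (12 called lower) and -1.09 (3 called lower). Of all genes, 5.78% and 3.41% were called lower in these comparisons. Of 15 listed TOP mRNAs that encode other parts of the translation machinery, 4 fell in PT-D compared to PT-ND (Eif3f -0.52, Eif3h -0.60, Rack1 -0.63, Tpt1 -0.76) and 0 rose, beside 5.78% and 7.14% of all genes, with a median of -0.49. Fau, a small subunit protein outside the symbol pattern because of its ubiquitin-like fusion, read 5483, 4601 and 4259 in PT-D and 6037, 8024 and 10206 in PT-ND, without overlap, and fell (-0.76, adjusted p = 0.033). The other 5 ribosomal protein genes outside the pattern did not pass in that comparison.

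The genes that make ribosomes did not move as one set. Of 30 listed genes for ribosomal RNA synthesis and ribosome assembly, 5 rose in PT-D compared to PT-ND, among them Heatr1 (0.70), Mdn1 (0.63) and Rrp12 (0.64), beside 7.14% of all genes, and 1 fell, the 5S assembly factor Rpf2 (-0.73), with a median of 0.08. In the interaction Heatr1 (0.75) and Polr1b (0.84), a subunit of RNA polymerase I, were called higher, and in the other 4 comparisons 0 of the 30 passed edgeR's test in either direction, where 1 to 10 had an unadjusted p under 0.05. Coding length, by which other genes also differed in PT-D compared to PT-ND, was not accounted for in this list.

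Of 19 listed genes of mTORC1 and of the control of translation, 4 rose in PT-D compared to PT-ND and 0 fell, beside 7.14% and 5.78% of all genes. They were Larp1 (0.66), which binds TOP mRNAs, Tsc1 (0.67), which restrains mTORC1, Sesn2 (1.16), a stress-induced inhibitor of mTORC1, and Deptor (0.50), a subunit that inhibits it. Sesn2 also rose in PT-D compared to T-D (1.29), and Myc, which drives ribosome production in many tissues, rose in PT-D compared to T-ND (1.20). These mRNA levels do not measure the activity of the pathway, and phosphorylated Rps6 was not part of these data. Among other protein-coding genes above 3000 coding bases, 448 of 1361 were called higher in PT-D compared to PT-ND, with a median of 0.46. In those of 1801 to 3000 bases it was 344 of 2074. The part of coding length in the rises of this list and of the list before it was not tested.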

How the data were processed

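Poly-A-selected, un-stranded libraries of 14 kidneys were aligned and counted by the authors with STAR on GRCm39, and the deposited count tables hold raw read counts per gene. The unstranded column was used. Reads that map to several places were not counted, and those in overlapping genes were set aside, which can lower genes with near copies or neighbours. The annotation of the files, GENCODE M36, was read through M39 (56236 of 56980 identifiers matched without version). No column of another series was present.

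Groups came from the labels and each pair was fitted on its own libraries with the edgeR 4.0.16 quasi-likelihood test (TMM scaling, R 4.3.3) over genes with a total count above 10, as in the study, with Benjamini-Hochberg adjustment over all of them. A gene was called at an adjusted p under 0.05. The interaction used all 14 libraries. Normalised read counts are TMM-scaled to the mean library size. Relative log2 levels used a prior count of 0.5. Coding length was the shortest CCDS coding sequence, else the canonical one. Near copies were searched with BLAST 2.17.0 (at least 95% identity over at least 80% of the length of the pseudogene, itself at least 200 bases). A near copy can therefore match only part of its gene. Groups of 3 or 4 limit precision, and p-values measure the spread between these mice.

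Alternatives were DESeq2 1.42.0 (the study's tool), RLE scaling, filterByExpr, no filter, 1 joint fit, the replicate number as a block, the letter suffix of library names as a covariate, an offset for gene length, added pseudogenes or near copies, the study's call rule (also a log2 fold change beyond 1) and leaving out each library. The fits were tested on simulated data. Named genes were, per comparison, the up to 5 called in each direction with the smallest adjusted p (else the 2 with the smallest p), genes past the study's call rule, the 3 highest and 3 lowest per kilobase, genes varying over 10-fold within a group, and fixed roles and paralogs. The members, lists and length classes were chosen with earlier results of these data known. Protein sequences were not used here. The values of some single genes are not reported here.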

Additional observations from a re-analysis of the deposited data

Results flagged for a closer look

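In 8 of 88 checks of a gene within a group of 4, T-D 4 lay far above the other T-D libraries, with a gap to the nearest library of at least 84.0% of the range of the group; chance gives about 1 in 20 such flags. The normalised read counts in T-D 4 were 7179.8 for Rpl26, 10772.8 for Rpl3, 7433.3 for Rplp2, 11776.9 for Rps24, 11230.5 for Rps26, 9971.5 for Rps27a, 12488.2 for Rps6 and 13390.9 for Rps7. The genes move together across libraries, so these are not independent.

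The log2 response to STZ differed between preterm and term mice by the edgeR interaction test in 20 of the 79 genes, in each case lower after preterm birth. The differences were -1.63 for Rpl35a, -1.30 for Rpl17, -1.84 for Rps4l, -1.31 for Rpl38, -1.22 for Rps28, -1.27 for Rpl37a, -1.12 for Rps23, -1.05 for Rps16, -1.37 for Rpl19 and -1.86 for Rpl35. They were -1.47 for Rpl29, -1.11 for Rps21, -1.04 for Rps9, -1.07 for Rps15, -1.16 for Rpl41, -1.11 for Rps27l, -1.25 for Rps26, -1.14 for Rpl37, -1.06 for Rpl11 and -1.03 for Rpl28. Adjusted p-values ran from 0.027 to 0.050. 68.9% of the exon bases of Rpl35 lie under another annotated gene.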

How the results depend on the processing

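The median log2 fold changes of the family kept their sign in all 108 values under the alternatives run, while the numbers of genes called did not hold. Leaving out 1 library gave medians of -0.51 to -0.32 in PT-D compared to T-ND, -0.87 to -0.50 compared to T-D, -0.84 to -0.48 compared to PT-ND, 0.10 to 0.45 in T-D compared to T-ND, 0.07 to 0.41 in PT-ND compared to T-ND and -1.20 to -0.78 in the interaction. The numbers called then ran from 0 to 18, 0 to 3, 1 to 68, 0 to 0, 0 to 1 and 0 to 43, beside 2, 0, 30, 0, 0 and 20. Apart from the shares given above, the numbers called over all genes under the alternatives are not reported here, so these counts have no background beside them. The mean share of the family in the counts ran from 2.29% to 2.50% in T-ND, 2.44% to 2.86% in T-D, 2.39% to 2.88% in PT-ND and 1.76% to 1.93% in PT-D. Without mitochondrial genome transcripts it was 2.67% in T-ND and 2.15% in PT-D, and PT-D no longer lay below every other library (PT-D 1 at 2.43%, T-ND 3 at 2.23%, PT-ND 1 at 2.36%).

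Compared to T-ND, the number called in PT-D was 22 by DESeq2, 4 with filterByExpr, 1 in the joint fit, by the study's call rule, with named pseudogenes added or with near copies added, and 0 with the replicate block or the length offset. Compared to T-D it was 61 by DESeq2, 44 with no filter, 17 in the joint fit and 1 with the replicate block. Compared to PT-ND it was 62 by DESeq2, 67 with no filter, 7 in the joint fit, 4 with the length offset and 3 by the study's call rule. In T-D compared to T-ND DESeq2 called 4, and in PT-ND compared to T-ND DESeq2 and the fit with no filter called 1 each. In the interaction it was 58 by DESeq2, 39 with no filter, 12 with the library-name suffix as a covariate, 6 with the length offset and 4 with the replicate block. Same-numbered libraries of different groups did not pair (correlation of their deviations -0.27 to 0.31, above 0.1 in 2 of 19 pairs). The causes were not tested, beyond the study's rule asking for a larger change.

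Of 1611 values of single named genes, 1198 stayed on their side of the threshold, 311 no longer passed, 90 newly passed and 12 changed sign. With near copies added, Rpl24 turned to -0.42 in PT-D compared to T-ND and -0.56 compared to T-D, Rps10 to -0.15 compared to T-D (-0.10 with named pseudogenes), and Rpl26 to -0.40 in PT-D compared to PT-ND and -0.84 in the interaction, which follows from the added reads. Rpl3l ran from -0.10 to 0.72 in PT-D compared to T-ND when 1 library was left out (-0.10 without PT-D 2). Rps10 ran from -0.36 to 0.021 in T-D compared to T-ND (0.021 without T-D 4), and was 0.057 in PT-D compared to PT-ND without PT-ND 3. Rps2 in that comparison was 0.13 with the replicate block and 0.35 without PT-ND 3, and Rps27l was 0.023 with the length offset. Depth limits Rpl24, Rpl3l and Rps10, whose mean counts are low.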
